A study of Mus musculus with 6 samples.

Results

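The unfolded protein response (UPR) of the endoplasmic reticulum (ER) was followed in mouse embryonic stem (ES) cells through 10 genes: the sensors Ern1 and Atf6, the transcription factor gene Xbp1, and their targets Calr, Pdia4, Creld2, Manf, Sdf2l1, Edem1 and Herpud1. They were found by symbol among 55401 gene identifiers in a table of read counts, and each was matched to 1 identifier. The series measured poly(A) RNA in 6 libraries. In 3 of them the cells are labelled as expressing 3XHA-Taf13 and as untreated, and in the other 3 they are labelled KO and as given doxycycline; the culture lasted 7 days in both, and each library came from its own Petri dish. Taf13 encodes a subunit of TFIID, the general factor that places RNA polymerase II at promoters. The KO label and doxycycline occur only together, so their parts in any difference cannot be told apart. The driver of the tagged gene, the number of clones behind the cells and whether dishes share a starting culture were not stated in the sources used here, and the p-values measure the spread between these dishes.

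The UPR adjusts the folding capacity of the ER to the load of unfolded proteins. IRE1-alpha, the product of Ern1, is a transmembrane kinase and RNase that splices the Xbp1 messenger RNA so that it encodes an active transcription factor, and ATF6 is a membrane-bound factor that is cut free in the Golgi and enters the nucleus. XBP1 and ATF6, with the CCAAT-binding factor NF-Y, drive genes for chaperones, disulphide isomerases and the machinery that returns misfolded proteins to the cytosol for degradation. The third sensor, PERK (Eif2ak3), slows translation and raises ATF4 and CHOP (Ddit3), which other stress kinases can also do. IRE1 and ATF6 are themselves regulated largely after translation, and counts per gene do not separate spliced from unspliced Xbp1, so the values below are messenger RNA levels and not the activity of a sensor.

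Promoter windows from RefSeq (GRCm38.p6, 250 bases before to 50 after an annotated start) were at hand for 8 of the 10 genes, Atf6 and Manf being those without an entry. The windows of the 2 genes that passed the test below, Herpud1 and Xbp1, and of the 2 genes with a complete ER stress element, Creld2 and Calr, are printed 5′ to 3′ on the coding strand, because they show which known stress elements stand beside genes that did and did not change. Capitals mark the ER stress element (CCAAT, 9 bases of any kind, CCACG), the second ER stress element (ATTGG, 1 base of any kind, CCACG) and the C/EBP-ATF element (TGATGNAA), each searched on both strands. The windows are chr8:94386179-94386478 on the plus strand for Herpud1, chr11:5520391-5520690 on the plus strand for Xbp1, chr15:88819396-88819695 on the plus strand for Creld2 and chr8:84846882-84847181 on the minus strand for Calr.
Herpud1: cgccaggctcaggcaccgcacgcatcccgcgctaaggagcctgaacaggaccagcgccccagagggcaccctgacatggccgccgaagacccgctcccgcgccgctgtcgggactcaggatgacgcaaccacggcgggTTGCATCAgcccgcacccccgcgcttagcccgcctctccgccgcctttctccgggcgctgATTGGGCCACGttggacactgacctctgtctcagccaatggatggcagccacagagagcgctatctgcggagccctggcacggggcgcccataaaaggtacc
Xbp1: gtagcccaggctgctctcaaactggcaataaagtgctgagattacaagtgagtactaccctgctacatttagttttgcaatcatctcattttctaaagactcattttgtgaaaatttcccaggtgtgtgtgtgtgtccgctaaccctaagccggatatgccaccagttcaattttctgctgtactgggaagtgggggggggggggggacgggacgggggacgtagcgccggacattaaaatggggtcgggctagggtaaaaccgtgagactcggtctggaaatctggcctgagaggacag
Creld2: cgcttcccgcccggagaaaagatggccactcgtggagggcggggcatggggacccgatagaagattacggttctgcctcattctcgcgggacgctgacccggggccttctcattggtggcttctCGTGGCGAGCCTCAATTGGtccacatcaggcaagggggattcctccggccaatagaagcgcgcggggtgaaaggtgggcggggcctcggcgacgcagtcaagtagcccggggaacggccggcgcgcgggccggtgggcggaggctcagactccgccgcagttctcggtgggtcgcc
Calr: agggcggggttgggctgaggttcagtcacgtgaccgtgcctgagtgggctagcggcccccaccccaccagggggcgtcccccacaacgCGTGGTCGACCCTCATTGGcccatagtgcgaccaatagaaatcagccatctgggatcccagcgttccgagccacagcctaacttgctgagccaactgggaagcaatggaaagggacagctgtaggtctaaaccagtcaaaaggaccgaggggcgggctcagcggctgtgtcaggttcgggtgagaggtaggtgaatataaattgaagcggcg

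Herpud1 held both a second ER stress element, from base -52 to -42 relative to its start, and a C/EBP-ATF element, from -112 to -105 on the opposite strand. Of the 8 genes it was the only one with either of these. Across all 27025 genes with a window, the second ER stress element was found in 12 genes (0.0444%) and the C/EBP-ATF element in 1219 (4.51%). A complete ER stress element stood in Creld2 (-126 to -108) and Calr (-162 to -144), both in the reverse direction, and in 37 of all genes (0.137%). The short boxes within these elements were more widespread: CCAAT was present in 6 of the 8 genes and in 41.1% of all genes, and CCACG in 7 of the 8 and in 35.5%; boxes lying within complete elements were counted too. Xbp1 held none of the motifs searched in this window. The XBP1-type element TGACGTGG (0.714% of genes) and the CREB-type core TGACGTCA (2.03%) were in none of the 8. A match is a stretch of letters and not a shown binding site.

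Total counts ran from 31219328 to 50328010 per library, so that 3 counts correspond to 0.0581 to 0.0961 CPM (read counts scaled to library size by TMM), a limit that covers counting error only. All 10 genes lay far above it. Expressing replicate 1 stood apart from the other libraries of its group: its 2 pairs gave a chi-square per degree of freedom of 37.9 and 30.8, where no other replicate pair exceeded 6.20, and its deviation from the group mean followed the GC content of genes (r = 0.553 over genes, which do not count as replicates). Calls of the 10 genes and of the pathway genes named by the rule below that change without it are given both ways. So are the counts called over the 10 genes, the whole pathway and all tested genes. Counts per role, element and marker list, those outside the PERK arm and those of groups without overlap rest on all 6 libraries. How these change without that library is not reported here. Taf13 stood at 10.05 ± 2.21 CPM in the expressing libraries and 13.2 ± 1.02 CPM in the libraries labelled KO (SD, n = 3), so it was not lower there, and directions rest on the labels. Markers of the labelled cell type, led by Lin28a, Tdgf1 and Pou5f1, were present in both groups, but 9 of 10 (all but Lin28a) were lower in the libraries labelled KO, with a summed level of 4407 to 4570 CPM against 3195 to 3249 CPM. All 15 primitive endoderm markers, led in level by the matrix genes Lamc1, Sparc and Lamb1, were higher (summed level 1041 to 1189 CPM against 2134 to 2197 CPM), and none was at 0. Of 11 fibroblast markers, led in level by Fn1, Acta2 and Col1a1, 3 were higher and 1 lower (27.3% and 9.1%), and none was at 0. Their summed level was 1239 to 1460 CPM in the expressing libraries. It was 1160, 1676 and 1166 CPM in KO replicates 1, 2 and 3, so the upper end rests on 1 library. For each marker list, the shares over all tested genes were 19.2% higher and 20.8% lower. In bulk RNA fewer cells of a type and less RNA per cell cannot be told apart, and the part of these shifts in the results below was not tested.

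The design sets cells labelled KO against cells expressing tagged TAF13, and in the libraries labelled KO Herpud1 fell strongly and Xbp1 fell less. Herpud1 stood at 0.413 of its level in the expressing libraries (95% interval 0.359 to 0.474, n = 3 per group) and Xbp1 at 0.807 (0.732 to 0.889). The other 8 genes did not pass the test (edgeR's quasi-likelihood test, Benjamini-Hochberg adjusted p under 0.05 over 17778 genes), and their 95% intervals all lay within a 1.31-fold change in either direction. Thus 2 of 10 fell and 0 rose, where 20.8% of all tested genes were lower, 19.2% higher and 40.0% changed in either direction. At an unadjusted p under 0.05 in edgeR, 1 of the 10 was higher. With DESeq2, at an adjusted p under 0.05, 0 were. All 10 passed the filter on low counts. The median log2 fold change (libraries labelled KO minus expressing) was 0.07 over the 10 genes and -0.01 over all tested genes. The groups of libraries did not overlap for 5 of the 10 genes (2 higher, 3 lower), against 53.5% of all genes (26.4% higher, 27.1% lower).

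**Figure D1:**
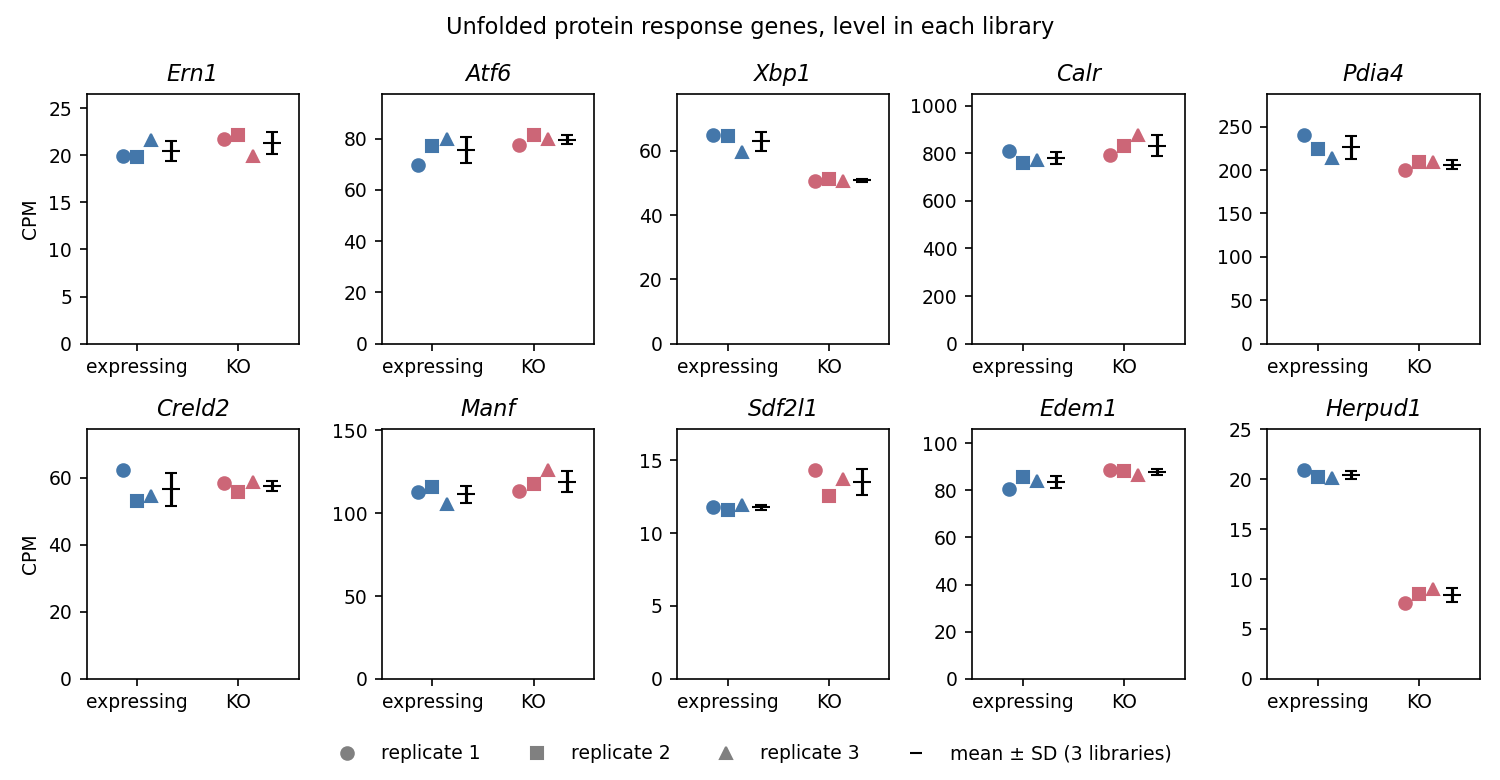
Level of each of the 10 genes in every library, in CPM on a linear axis that starts at 0, with the mean and SD of 3 libraries per group. Herpud1 sits at 20.1 to 20.9 CPM in the expressing libraries and at 7.63 to 9.05 CPM in those labelled KO, while Ern1, Atf6, Creld2, Calr and Manf overlap between the groups.

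Herpud1 (ENSMUSG00000031770; chromosome 8, 94386438 to 94395377, mm10) encodes an ER membrane protein with a ubiquitin-like domain that organises the HRD1 ubiquitin ligase complex in ER-associated degradation. As background, it is a target of ATF6 and XBP1 and also of the PERK and ATF4 arm. Its level was 20.9, 20.3 and 20.1 CPM in the expressing libraries and 7.63, 8.52 and 9.05 CPM in the libraries labelled KO. Each library labelled KO thus lay far below the lowest expressing library, and the spread within either group was small (20.4 ± 0.414 and 8.4 ± 0.72 CPM, n = 3 each, SD). On the log2 scale the change was -1.28 (SE 0.0892, 95% interval -1.48 to -1.08, adjusted p = 1.03e-05, edgeR). Its call held under all 14 alternatives, with a log2 fold change of -1.33 to -1.19 and an adjusted p of at most 2.15e-04.

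Xbp1 (ENSMUSG00000020484; chromosome 11, 5520659 to 5525893) encodes the transcription factor that IRE1 activates by splicing, and is itself a target of ATF6. It was counted at 64.8, 64.5 and 59.5 CPM in the expressing libraries and at 50.6, 51.3 and 50.4 CPM in those labelled KO. The groups did not overlap, and the libraries labelled KO lay within about 1 CPM of each other (50.8 ± 0.49 CPM, with 62.9 ± 2.96 CPM in the expressing libraries, n = 3 each, SD). On the log2 scale the change was -0.31 (SE 0.0622, 95% interval -0.45 to -0.17, adjusted p = 0.00371, edgeR). It was lower under all 14 alternatives as well, from -0.34 to -0.22, with an adjusted p of at most 0.0332. In size this change was ordinary for these libraries: its absolute log2 fold change stood at percentile 53.2 of all tested genes, and that of Herpud1 at percentile 94.96.

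Neither sensor gene passed the test. Ern1 (ENSMUSG00000020715; chromosome 11, 106394650 to 106487852) was at 19.9, 19.8 and 21.7 CPM in the expressing libraries and at 21.8, 22.1 and 19.96 CPM in those labelled KO. These ranges overlap, and the log2 fold change of 0.06 (SE 0.0792, 95% interval -0.12 to 0.23, adjusted p = 0.601, edgeR) has an upper bound of 1.18-fold. Atf6 (ENSMUSG00000026663; chromosome 1, 170704674 to 170867771) was at 69.8, 77.1 and 79.9 CPM against 77.7, 81.3 and 79.8 CPM, with a log2 fold change of 0.07 (SE 0.0668, 95% interval -0.08 to 0.22, adjusted p = 0.404, edgeR). Expressing replicate 1 was the lowest of the 6 libraries for Atf6, and neither gene passed under any of the 14 alternatives.

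Calr, the gene of the lectin chaperone calreticulin (ENSMUSG00000003814; chromosome 8, 84841850 to 84846934), was the most abundant of the 10 and made up 53.8% of their summed CPM in the expressing libraries. It stood at 808, 760 and 770 CPM in the expressing libraries and at 791, 830 and 875 CPM in those labelled KO. KO replicate 1 fell inside the expressing range, and the log2 fold change was 0.09 (SE 0.057, adjusted p = 0.213, edgeR). Without expressing replicate 1 it was 0.15 and passed (adjusted p = 0.00143), and it also passed with libraries scaled by their totals (0.18, adjusted p = 0.0376) and with the GC trend removed (0.11, adjusted p = 0.036).

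Pdia4, whose product is also known as ERp72 (ENSMUSG00000025823; chromosome 6, 47796141 to 47813430), encodes a disulphide isomerase with several thioredoxin domains. Its level was 240, 224 and 214 CPM against 200, 210 and 209 CPM, so the groups did not overlap, yet the log2 fold change of -0.13 (SE 0.0607, adjusted p = 0.112, edgeR) did not pass. It passed with the GC trend removed (-0.16, adjusted p = 0.0195), where it was lower, whereas without expressing replicate 1, its highest library, the value was -0.059 (adjusted p = 0.205) and with library totals -0.043 (0.650). Pdia4 was the only one of the 8 genes past no threshold here whose log2 fold change was below 0.

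Creld2 (ENSMUSG00000023272; chromosome 15, 88819646 to 88826683) encodes a secreted ER protein with EGF-like repeats that aids folding, and Manf (ENSMUSG00000032575; chromosome 9, 106838312 to 106891979) a small ER protein that binds the chaperone BiP and can be secreted as a neurotrophic factor. Creld2 was at 62.3, 53.0 and 54.5 CPM in the expressing libraries and at 58.5, 55.9 and 58.6 CPM in those labelled KO. Manf was at 113, 116 and 106 CPM against 114, 118 and 126 CPM. Neither passed (0.03, SE 0.0746, adjusted p = 0.796, and 0.10, SE 0.064, adjusted p = 0.256, edgeR), and the groups overlapped for both. For Creld2 the highest of all 6 values belonged to expressing replicate 1; without that library the log2 fold changes were 0.13 for Creld2 (adjusted p = 0.0322) and 0.13 for Manf (adjusted p = 0.0232), and both passed. Of the exonic bases of Manf, 4.71% are shared with an antisense gene and 4.14% with Dcaf1 on the opposite strand, and the strand setting of the counting is not given, so its reads may not be fully its own.

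Sdf2l1 (ENSMUSG00000022769; chromosome 16, 17130138 to 17132383) encodes a partner of the ER co-chaperones ERdj3 and BiP, and Edem1 (ENSMUSG00000030104; chromosome 6, 108828641 to 108859356) a mannosidase-like protein that marks misfolded glycoproteins for degradation. Sdf2l1 was at 11.8, 11.6 and 11.9 CPM in the expressing libraries and at 14.3, 12.5 and 13.7 CPM in those labelled KO. Although the groups did not overlap, its log2 fold change of 0.20 (SE 0.0861, 95% interval 0.01 to 0.39) had an adjusted p of 0.0919 in edgeR. It passed without expressing replicate 1 (0.23, adjusted p = 0.0271), with library totals (0.29, adjusted p = 0.0296) and with the GC trend removed (0.26, adjusted p = 0.02). Edem1 was at 80.7, 85.5 and 84.1 CPM against 88.5, 88.4 and 86.5 CPM, also without overlap, with a log2 fold change of 0.07 (SE 0.0561, adjusted p = 0.326, edgeR). Edem1 passed with library totals (0.16, adjusted p = 0.0428), a scaling under which the median over all genes was 0.08 in place of -0.01.

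Over the 10 genes, leaving out expressing replicate 1 gave 4 higher and 2 lower, library totals 3 higher and 2 lower, and removal of the GC trend 2 higher and 3 lower. The fall of Herpud1 and Xbp1 was common to all of these. Calls among all tested genes moved as well, from 3422 higher and 3695 lower to 4851 and 4589 without expressing replicate 1, 4466 and 2570 with library totals, and 4471 and 4924 with the GC trend removed.

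**Figure D2:**
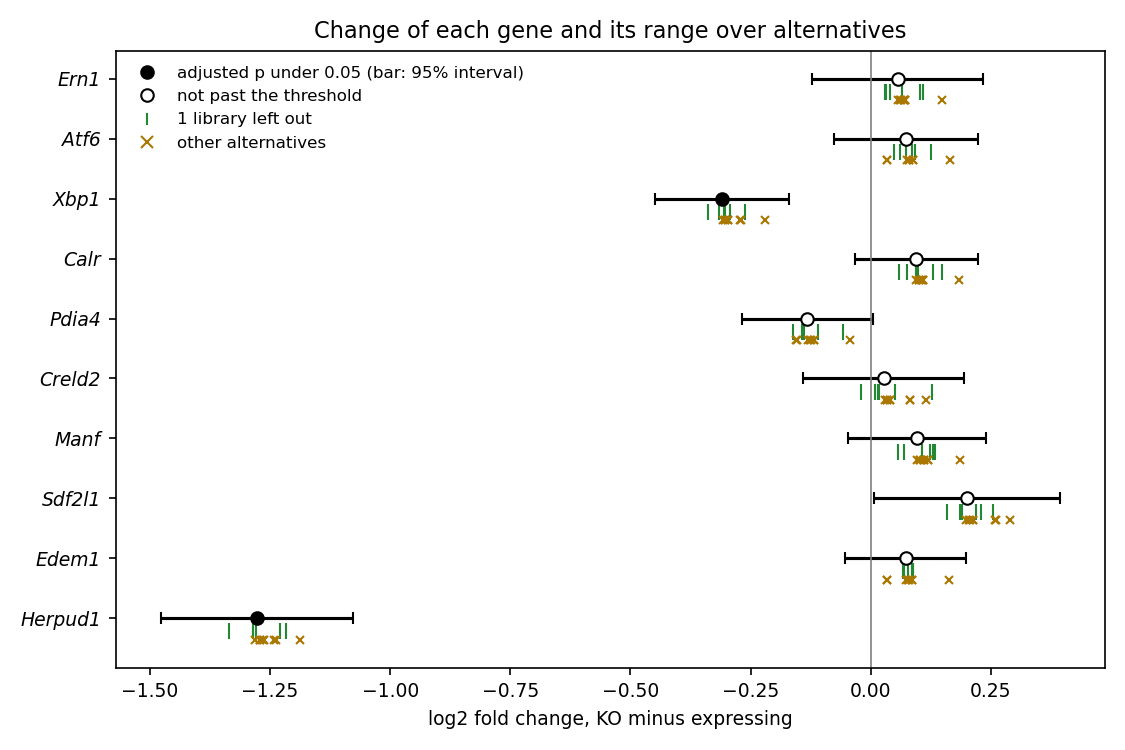
Log2 fold change of each gene (libraries labelled KO minus expressing) with its 95% interval, and below it the values with 1 library left out and under the other alternatives. Herpud1 at -1.28 and Xbp1 at -0.31 are clear of 0 throughout, while the 8 others lie between -0.13 and 0.20 with all 6 libraries and TMM, and reach from -0.16 (Pdia4) to 0.29 (Sdf2l1) over the alternatives.

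To compare genes with each other, levels were set per kilobase of annotated exon. In the expressing libraries the order was Calr (271 ± 8.73 CPM per kb, SD, n = 3), Pdia4 (94.2 ± 5.53), Creld2 (41.4 ± 3.63), Manf (31.6 ± 1.44), Xbp1 (19.4 ± 0.91), Edem1 (12.9 ± 0.382), Sdf2l1 (10.6 ± 0.156), Herpud1 (8.75 ± 0.178), Atf6 (8.19 ± 0.563) and Ern1 (2.5 ± 0.128). The library ranges of Herpud1 and Atf6 overlapped, and those of all other neighbours in the order did not. Calr thus exceeded Ern1 by 108 times per length. In the libraries labelled KO the order was the same except that Herpud1, at 3.60 ± 0.309 CPM per kb, had dropped below Atf6 at 8.63 ± 0.199, no longer overlapping it. Lengths are the union of all annotated exons, so that a gene with long rare isoforms, as the span of Manf makes possible, is placed too low.

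**Figure D3:**
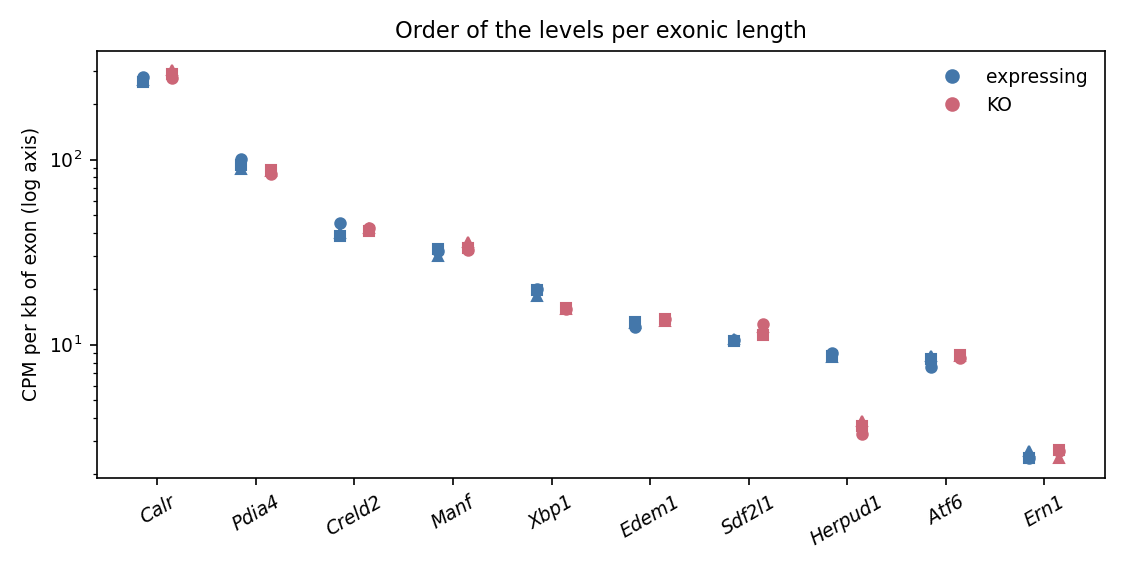
Level per kilobase of exon of each gene in every library, on a log axis, ordered by the mean of the expressing libraries. Calr is at the top near 271 CPM per kb and Ern1 at the bottom near 2.5; Herpud1 is the gene whose libraries labelled KO stand well below its expressing libraries.

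Several of the 10 genes have a paralogue, and these 5 pairs were chosen after their values were seen. Herpud2, a relative of Herpud1, was at 34.2, 42.2 and 42.1 CPM in the expressing libraries and at 47.4, 46.4 and 47.4 CPM in those labelled KO, so it was higher where Herpud1 was lower (log2 fold change 0.25, SE 0.0873, adjusted p = 0.0452, edgeR). That call did not hold without KO replicate 1 (adjusted p = 0.122), 2 (0.105) or 3 (0.126). The log2 ratio of Herpud1 to Herpud2 was -0.95 ± 0.202 in the expressing libraries and -2.49 ± 0.130 in those labelled KO (SD, n = 3), with no overlap. Summed, the pair moved from 59.9 to 55.5 CPM.

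Atf6b, which encodes the other membrane-bound ATF6 factor, fell (55.6, 40.7 and 43.7 CPM against 35.3, 35.1 and 34.3 CPM; log2 fold change -0.42, SE 0.109, adjusted p = 0.0135, edgeR), while Atf6 did not pass. The highest value was that of expressing replicate 1, without which the change was -0.24 (adjusted p = 4.56e-04, edgeR); the call of Atf6b was lost with library totals (adjusted p = 0.055) and without KO replicate 3 (0.057). Creld1, the membrane-anchored relative of Creld2, fell from 7.35 ± 0.509 to 4.57 ± 0.485 CPM (n = 3, SD), or -0.68 on the log2 scale (SE 0.117, edgeR adjusted p = 0.00158). The log2 ratio of Atf6 to Atf6b differed by 0.48 and that of Creld2 to Creld1 by 0.72 between the groups, in both cases without overlap; without expressing replicate 1, a comparison added after seeing the data, the differences were 0.29 and 0.75.

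Sdf2, the paralogue of Sdf2l1, rose by 0.26 (SE 0.0722, adjusted p = 0.0183, edgeR), but 16.0% of its exonic bases are shared with a gene on the opposite strand. The Sdf2 call did not hold without expressing replicate 3 (adjusted p = 0.081) or KO replicate 1 (0.0778), 2 (0.0621) or 3 (0.0545). The ratio of Sdf2l1 to Sdf2 overlapped between the groups (log2 difference -0.06), as did that of Manf to Cdnf, a gene at 0.6 CPM (-0.31); without expressing replicate 1 these differences were -0.11 for both. For each of the 3 pairs whose ratios did not overlap, a two-sided exact permutation test over the 6 libraries gave p = 0.1, the smallest that 3 libraries against 3 can give (0.167 adjusted over the 5 pairs), so none of these differences could pass. The other two pairs gave p = 0.4 and 0.2 by the same exact test.

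**Figure D4:**
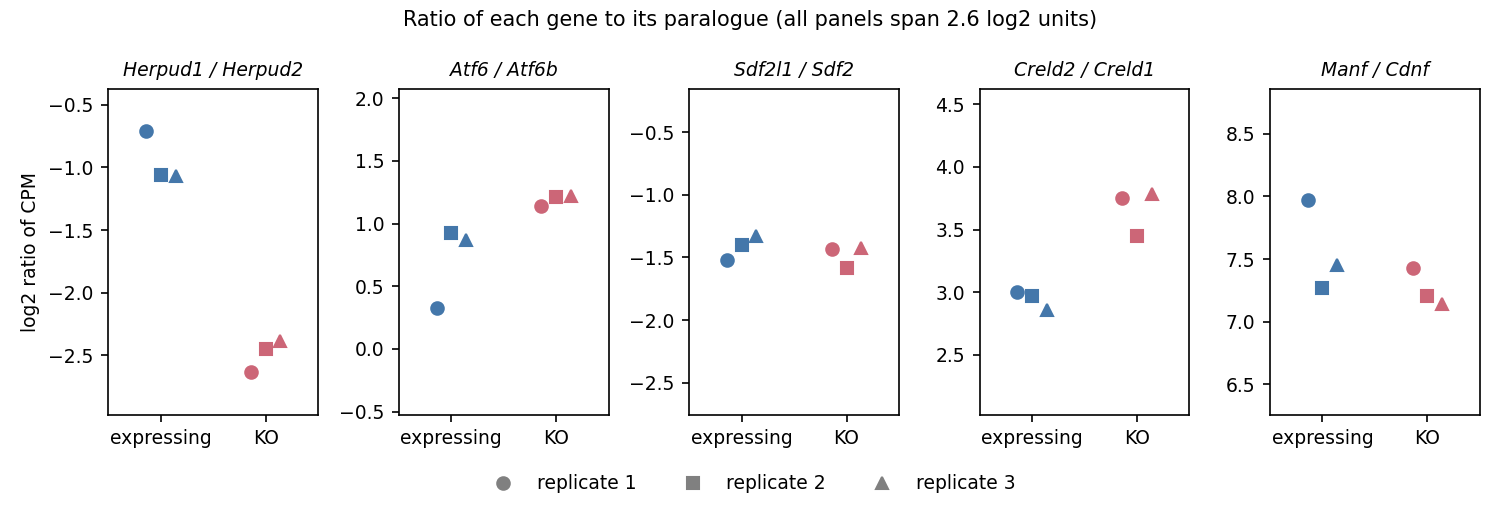
Log2 ratio of CPM of each gene to its paralogue in every library; every panel spans the same range. The ratio of Herpud1 to Herpud2 lies at -1.06 to -0.71 in the expressing libraries and at -2.64 to -2.39 in those labelled KO, and the ratios for Sdf2l1 and Manf overlap between the groups.

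The wider pathway was read from lists of 157 other genes in 8 roles, of which 155 were tested. Here 36 rose (23.2%) and 20 fell (12.9%), against 19.2% and 20.8% of all genes, with a median log2 fold change of 0.08. With the 10 genes included the counts were 36 higher and 22 lower. They became 79 and 30 without expressing replicate 1, 70 and 15 with library totals, and 60 and 30 with the GC trend removed. Over all genes these settings gave 4851 and 4589, 4466 and 2570, and 4471 and 4924, against 3422 and 3695. The higher share of the pathway calls was 62.1% as reported, and 72.5%, 82.4% and 66.7% under these settings. Over all genes that share was 48.1% as reported, and 51.4%, 63.5% and 47.6%. Without KO replicate 1, 2 or 3 the higher genes numbered 22, 20 and 22, and over all genes 2700, 2541 and 2586. Their share of the pathway calls was then 57.9%, 52.6% and 59.5%, against 49.3%, 49.0% and 49.6% over all genes. By rule, up to 3 called genes per role and direction are named below. Of the 38 called genes that the rule chose, 25 passed under all 14 alternatives.

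Among 16 other sensor and transducer genes tested, 4 rose and 2 fell (25.0% and 12.5%, against 19.2% and 20.8% of all genes). The increases were led by 3 genes of the CREB3 family, membrane-bound factors cut free in the Golgi much as ATF6 is. Creb3 rose from 21.2 ± 2.56 to 37.5 ± 1.1 CPM (n = 3, SD), or 0.83 on the log2 scale (SE 0.0916, edgeR adjusted p = 1.29e-04), Creb3l2 by 0.81 (SE 0.116) and Creb3l1 by 0.54 (SE 0.0815). Of the exonic bases of Creb3, 15.2% are shared with Tln1 and 5.61% with Gba2, both on the opposite strand. Nfya, a subunit of the CCAAT-binding factor, fell by 0.26 on the log2 scale (SE 0.0558, adjusted p = 0.00484, edgeR). Eif2ak3, the PERK gene, did not pass (-0.06, SE 0.0645, adjusted p = 0.452, edgeR).

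Of 15 other chaperone and co-chaperone genes, 5 rose (33.3%, against 19.2% of all genes) and 3 fell. The share that fell was close to the 20.8% of all genes. Hspa5, which encodes BiP, the ER's main HSP70 and the usual gauge of the UPR, was at 923 ± 53.4 and 1004 ± 29.1 CPM (n = 3, SD), or 0.12 on the log2 scale (SE 0.0581, edgeR adjusted p = 0.126). It passed without expressing replicate 1 (adjusted p = 1.32e-05) and with library totals (0.0281). Hsp90b1, the gene of the ER HSP90 chaperone GRP94, fell from 1593 ± 49.8 to 1228 ± 33.4 CPM (n = 3, SD), or -0.38 on the log2 scale (SE 0.0513, edgeR adjusted p = 4.33e-04), and 10.3% of its exonic bases are shared with an antisense pseudogene. Dnajc1 rose by 0.33 (SE 0.0756). Dnajb9, a well-known target of XBP1, was at 22.8 ± 5.2 and 24.5 ± 1.15 CPM (n = 3, SD), or 0.10 on the log2 scale (SE 0.147, edgeR adjusted p = 0.633). Its lowest library was expressing replicate 1, at 16.8 CPM, and without it the log2 change was -0.049.

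Disulphide and proline folding enzymes numbered 7 higher and 4 lower of 23 (30.4% and 17.4%, against 19.2% and 20.8% of all genes). Among the higher were the sulphydryl oxidase gene Qsox1 at 0.87 (SE 0.14), the thioredoxin-domain gene Erp44 at 0.43 (SE 0.0774) and Pdia5 at 0.40 (SE 0.0901). The prolyl isomerase gene Fkbp9 was lower, at -0.36 (SE 0.0587). In glycan quality control 2 of 10 rose and the other 8 did not pass; those that rose were Uggt2, a glucosyltransferase that senses misfolded glycoproteins, by 0.93 (SE 0.114) and the lectin gene Erlec1 by 0.50 (SE 0.0966). Degradation genes other than Herpud1 numbered 6 higher and 2 lower of 26 (23.1% and 7.7%, against the same 19.2% and 20.8%). Selenos (0.37, SE 0.0625) and Sel1l (0.29, SE 0.0607), whose product holds the HRD1 complex together, rose. Derl3, which encodes a derlin of the degradation channel, fell from 5.28 ± 1.31 to 2.23 ± 0.275 CPM (n = 3, SD), or -1.22 on the log2 scale (SE 0.193, edgeR adjusted p = 0.00101), a change close in size to that of Herpud1.

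Of 29 translocation and signal peptide genes, 4 were higher and 1 lower (13.8% and 3.4%, against 19.2% and 20.8% of all genes). The decrease was Srpr, the signal recognition particle receptor (-0.29, SE 0.0539). Of 24 genes of transport between ER and Golgi, 6 rose and 1 fell (25.0% and 4.2%). Kdelr2 rose from 80.5 ± 2.10 to 112.8 ± 2.97 CPM (n = 3, SD), or 0.49 on the log2 scale (SE 0.0565, edgeR adjusted p = 1.70e-04) and Kdelr3 by 0.68 (SE 0.0966); both encode receptors that return escaped ER proteins with a KDEL-type tail. Sar1b, a small GTPase of COPII vesicles, rose by 0.59 (SE 0.0994). Of the remaining called genes named by rule, 11 did not keep their calls under every alternative: Hspa13, Dnajb11, Sec61a2, Ssr4, Spcs1 and Atf3 among the higher, and Sil1, P4hb, Fkbp2, Vcp and Sec24c among the lower. Their highest adjusted p over the alternatives ran from 0.0654 for Atf3 to 0.289 for Vcp (edgeR).

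The PERK, ATF4 and CHOP arm went lower: 7 of 13 tested genes fell and 2 rose (69.2% called, against 40.0% of all genes), with a median log2 fold change of -0.61. Atf4 was at 210, 202 and 220 CPM in the expressing libraries and at 41.9, 46.1 and 42.9 CPM in those labelled KO (-2.27, SE 0.0655, adjusted p = 1.79e-07, edgeR). Ddit3, the CHOP gene, was at 8.97, 8.30 and 7.44 CPM against 3.55, 3.55 and 3.14 CPM (-1.27, SE 0.118, adjusted p = 4.88e-05, edgeR), a change of the same size as that of Herpud1. Chac1, a glutathione-degrading enzyme gene, and Trib3, a pseudokinase gene, were lower by more (-4.28, SE 0.174, and -2.38, SE 0.105). Ppp1r15a, whose product reverses the translational block, rose by 0.31 (SE 0.0835, adjusted p = 0.0162, edgeR), a call lost without expressing replicate 3 (0.0724) or KO replicate 1 (0.0746). Earlier results of these data had already shown the fall of ATF4 targets, so it is no independent support. Outside this arm, 34 of the 142 other genes tested rose and 13 fell, with a median of 0.10. These are 23.9% and 9.2%, against 19.2% and 20.8% of all genes.

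**Figure D5:**
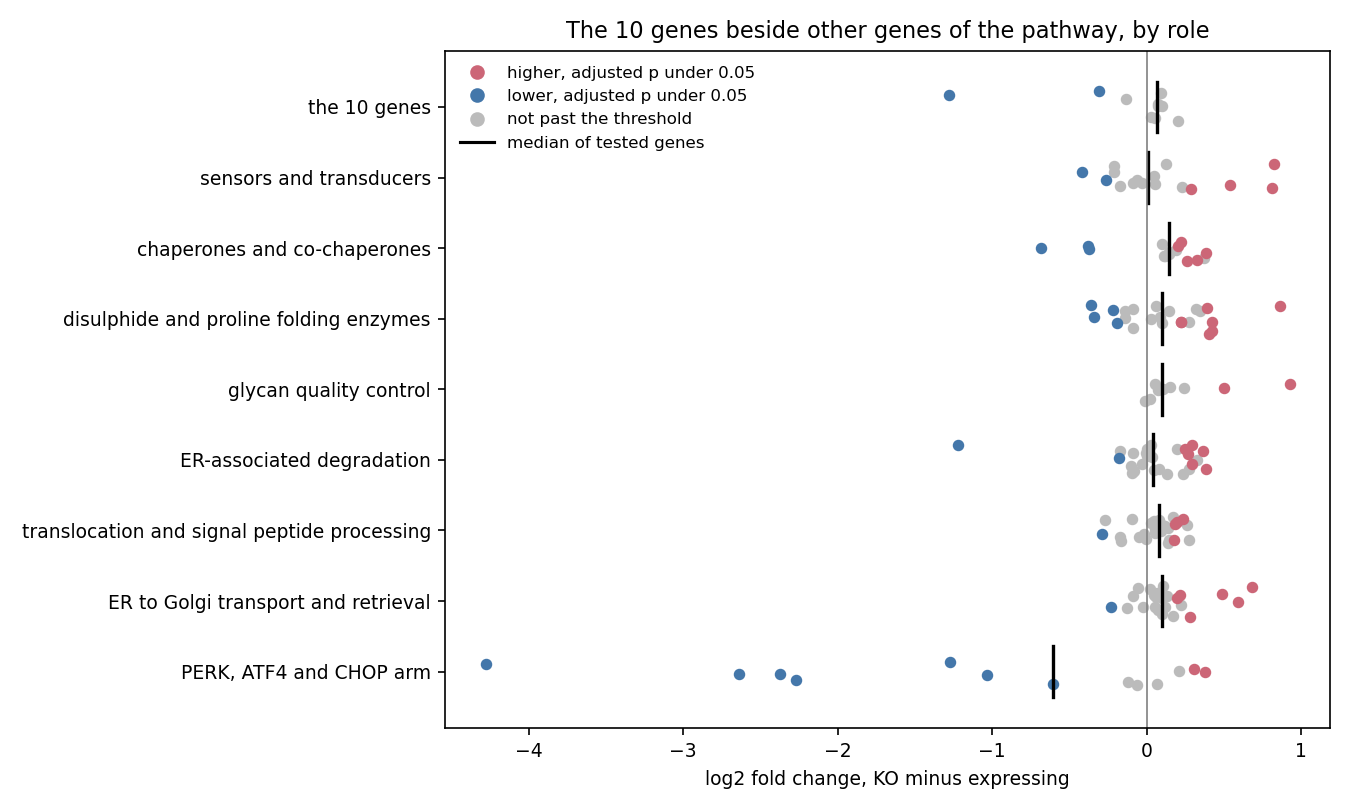
Log2 fold change (libraries labelled KO minus expressing) of the 10 genes and of the other tested genes of the pathway, 1 row per role, with the median of each row. The median of the PERK, ATF4 and CHOP row is -0.61, the other medians lie between 0.01 and 0.15, and the lowest point of the 10 genes is Herpud1.

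Pathway genes called with the second ER stress element or the C/EBP-ATF element went in both directions. Only 2 pathway genes with the complete element were called, both lower. Genes outside the lists with that element were called both ways, 3 higher and 5 lower of 11 tested. Of 10 tested pathway genes with a complete ER stress element, Calr and Creld2 among them, 2 fell (Hsp90b1 and Derl3) and 8, Hspa5 among them, did not pass. Of all tested genes 19.2% were higher and 20.8% lower, and the counts over these 10 genes were not tested against those shares. The second element stood in Herpud1, which fell, and in Dnajb11, at 0.20. Of 10 tested pathway genes with the C/EBP-ATF element, 4 fell (Herpud1, Chac1, Trib3 and Nupr1), 1 rose (Atf3) and 5 did not pass, Asns (-0.12) among them. Over all 334 tested genes with that element, 62 were higher (18.6%) and 92 lower (27.5%), against 19.2% and 20.8% of all genes tested. Names outside the rule in this paragraph were chosen after their values were seen, and the call of Nupr1 was not followed under the alternatives.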

How the data were processed

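Poly(A) RNA of 6 libraries was analysed, 3 per group, grouped by their titles. The deposited table holds raw whole-number counts per Ensembl gene. Per the submitters' processing notes, the authors used HTSeq 0.6.1p1, STAR 2.5.3a, cutadapt 1.10 and bcl2fastq 2.20.0.422 with mm10; the strand option and the annotation used for counting were not stated in the sources used here. Symbols and exonic lengths came from GENCODE M21 (same build), which named 55141 of 55401 identifiers; Ddit3 has a second identifier with fewer counts, which was not used.

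Genes were filtered with filterByExpr (minimum count 10, total 15; 17778 kept), scaled by TMM and tested with glmQLFit (robust) and glmQLFTest in edgeR 4.0.16 (R 4.3.3), group as the only term, adjusted over all tested genes. Standard errors and 95% intervals come from the F statistic. The step was tested on simulated counts with few changed genes and no library standing apart. That test therefore does not cover data in which many genes change or expressing replicate 1 deviates. CPM use TMM-scaled library sizes. The 14 alternatives were DESeq2 1.42.0 and its size factors, library totals, 2 other filters, 1 library left out at a time (6), a replicate block, and a loess trend on GC content removed per library, with and without the block. That GC trend was fitted to each library's deviation from the mean of all 6 libraries. Its removal can therefore also take out GC-linked differences between the groups. Calls use an adjusted p under 0.05. Promoters are RefSeq windows matched by symbol.

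The 10 genes and the lists were chosen with earlier results of these data known. Named are the 10 genes, Hspa5, Hsp90b1, Dnajb9, Eif2ak3, Atf4 and Ddit3, and per role the 3 called genes with the smallest p in each direction; of each marker list the 3 genes with the largest mean CPM. No protein sequences were used here, and 1 gene that the rule chose is not reported here.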

Additional observations from a re-analysis of the deposited data

How the results depend on the processing

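Over the 14 alternatives, the calls of Herpud1 and Xbp1 and the absence of a call for Ern1 and Atf6 held in each. The number of the 10 genes called higher, 0 as reported, was 3 with library totals and 2 with the GC trend removed. It was 2 with the replicate block and the GC trend removed together, and 0 to 4 with 1 library left out, the 4 being without expressing replicate 1. Over all tested genes the higher numbered 3422 as reported. They numbered 4466, 4471 and 4416 in the first 3 of these settings, and 2541 to 4851 with 1 library left out, the 4851 being without expressing replicate 1. With library totals the median log2 fold change was 0.16 over the 10 genes and 0.08 over all tested genes, against 0.07 and -0.01 as reported. Pathway genes called higher, 36 as reported, numbered 70 with library totals, 60 with the GC trend removed, 61 with the replicate block added to that, and 20 to 79 with 1 library left out. With library totals 82.4% of the calls among pathway genes were higher, against 62.1% as reported, while over all tested genes the share moved from 48.1% to 63.5%. Without expressing replicate 1 the shares were 72.5% and 51.4%, and with the GC trend removed 66.7% and 47.6%. Without KO replicate 2 they were 52.6% and 49.0%.

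Genes that passed only under an alternative were Sdf2l1, Edem1, Calr, Pdia4, Creld2 and Manf. With library totals Sdf2l1 (0.29), Edem1 (0.16) and Calr (0.18) passed. With the GC trend removed Sdf2l1 (0.26), Calr (0.11) and Pdia4 (-0.16) passed, as they did with the block as well (0.26, 0.11 and -0.15). With 1 library left out, these genes passed only without expressing replicate 1. There Sdf2l1 (0.23), Calr (0.15), Creld2 (0.13) and Manf (0.13) passed. Over all fits with 1 library left out, passed or not, Sdf2l1 ran from 0.16 to 0.25 and Calr from 0.058 to 0.15. Creld2 ran from -0.020 to 0.13 and Manf from 0.056 to 0.13. The cause was not tested. A fit with the replicate block alone left 0 of the 10 genes higher and 2 lower, and 34 pathway genes higher and 19 lower; same-numbered libraries did not deviate together (correlations 0.02, -0.03 and 0.04 across genes), so the numbers were not taken as pairs. What the spread between 3 libraries leaves undecided differs by gene: the 95% intervals of the 8 uncalled genes reach upward to 1.17-fold for Calr and 1.31-fold for Sdf2l1, for example.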

Other observations

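Beyond the listed genes, 11 further tested genes had a complete ER stress element in their promoter window and 9 the second element; they were described after their values were seen, and their calls were not run under the alternatives. Of the 11, in the libraries labelled KO, 5 were called lower and 3 higher. Among these calls were 2 genes at low levels, Calr4 (0.39 to 0.91 CPM) and Xlr3c (0.41 to 0.21 CPM). Spats2l rose from 9.20 to 16.1 CPM (log2 fold change 0.80, SE 0.0791) and Alg12, a mannosyltransferase of the N-glycan precursor, by 0.41 (SE 0.0948), whereas Acacb, an acetyl-CoA carboxylase (-0.49, SE 0.0973), Pan2, a deadenylase (-0.34, SE 0.0571), and Zfp57, a factor that guards imprints (-0.30, SE 0.0594), fell. Of the 9, 2 were called higher and 2 lower. Nucb1, a calcium-binding Golgi protein, rose from 62.1 to 86.4 CPM (0.48, SE 0.0841, adjusted p = 0.00182, edgeR) and Krtcap2, an oligosaccharyltransferase subunit, by 0.31 (SE 0.073). Gm32885 (-0.68, SE 0.0675) and Rcl1 (-0.35, SE 0.0709) fell. Over all 21 tested genes with the complete element 3 were higher and 7 lower, and over the 11 with the second element 3 and 3. Among all tested genes 19.2% were higher and 20.8% lower. The counts in this paragraph are small and were not tested against those shares.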
